A study of Mus musculus with 20 samples.

Results

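The 10 genes described here encode 2 signalling adaptors of myeloid cells, *Tyrobp* (DAP12) and *Fcer1g* (the FcR gamma chain), and 8 receptors that signal through them: *Clec5a*, *Trem1*, *Trem2*, *Clec4d*, *Clec4e*, *Clec4n*, *Fcgr1* and *Fcgr3*. They were taken by symbol from the 21963 gene entries of the count table, and all 10 were found and passed the filter on low counts that left 11707 genes for testing. RNA was sequenced from bone marrow-derived macrophages (BMDMs) of WT mice and of *Mcu*-/- mice, which lack the pore of the mitochondrial Ca2+ uniporter. The study asked how mitochondrial Ca2+ uptake shapes the response to zymosan, a particle of yeast cell wall. The 20 libraries were 4 WT untreated, 5 WT with zymosan for 3 h, 4 WT loaded with 10 µM BAPTA-AM, a cell-permeant Ca2+ chelator, and given zymosan for 3 h, 4 *Mcu*-/- untreated and 3 *Mcu*-/- with zymosan for 3 h. Zymosan was given at 2 particles per cell. The mice were 15 to 25 weeks old, and the knockout came from floxed *Mcu* deleted by Cre under the *Cx3cr1* promoter, which is active in myeloid cells. All BMDMs were grown in medium conditioned by L929 cells, and no BAPTA-AM group without zymosan or in *Mcu*-/- cells was analysed here. Labels call the replicates biological without naming the mice, so the p-values measure the spread between these libraries.

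DAP12 and the FcR gamma chain carry immunoreceptor tyrosine-based activation motifs (ITAMs). The receptors have short tails without signalling motifs of their own, and engagement of a receptor leads Src-family kinases to phosphorylate the adaptor, which then recruits Syk, activates phospholipase C gamma and raises cytosolic Ca2+. In macrophages CLEC5A, TREM1 and TREM2 pair with DAP12, the C-type lectins Mincle (CLEC4E), MCL (CLEC4D) and Dectin-2 (CLEC4N) pair with the FcR gamma chain, and the activating IgG receptors FcγRI (FCGR1) and FcγRIII (FCGR3) pair with it too. Dectin-1, the main lectin receptor for the beta-glucan of zymosan, carries a motif in its own tail and needs neither adaptor.

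The genes lie in clusters of the mouse genome (mm10, GENCODE M21 annotation). *Clec4n*, *Clec4d* and *Clec4e* follow each other on chromosome 6, with 15.1 kb between the first pair (*Clec4n* at chr6:123229843-123247021) and 6.52 kb between *Clec4d* (chr6:123262111-123275265, plus strand) and *Clec4e* (chr6:123281789-123289870, minus strand). *Clec5a* lies elsewhere on chromosome 6 (chr6:40574894-40585821). *Trem1* (chr17:48232768-48246924) and *Trem2* (chr17:48346401-48354147) share a cluster with *Trem3* between them. *Fcgr3* (chr1:171051174-171064935) and *Fcer1g* (chr1:171229572-171234365) are 165 kb apart, while *Fcgr1* (chr3:96282909-96293969) and *Tyrobp* (chr7:30413760-30417585) are on other chromosomes.

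The 250 bases before the start site are printed for the neighbours *Clec4e* and *Clec4d*, whose zymosan responses had very different sizes. They are also printed for *Trem2*, which differed most between the genotypes with zymosan, and for *Clec5a*. With zymosan *Clec5a* was called both with BAPTA-AM and between the genotypes, as were *Trem1* and *Fcgr3*. The start sites are those of RefSeq on GRCm38.p6, and the bases are read 5′ to 3′ on the strand of the gene. Capitals mark matches on either strand to 4 of the motifs searched, C/EBP (TTNCNNAA), PU.1 (GAGGAA), AP-1 (TGANTCA) and NF-κB.
Clec4e, chr6:123289872-123290121, minus strand: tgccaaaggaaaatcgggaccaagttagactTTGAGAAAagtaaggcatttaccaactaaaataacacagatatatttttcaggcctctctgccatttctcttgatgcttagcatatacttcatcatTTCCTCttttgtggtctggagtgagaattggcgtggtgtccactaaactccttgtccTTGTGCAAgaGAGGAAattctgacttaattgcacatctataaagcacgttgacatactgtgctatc
Clec4d, chr6:123261857-123262106, plus strand: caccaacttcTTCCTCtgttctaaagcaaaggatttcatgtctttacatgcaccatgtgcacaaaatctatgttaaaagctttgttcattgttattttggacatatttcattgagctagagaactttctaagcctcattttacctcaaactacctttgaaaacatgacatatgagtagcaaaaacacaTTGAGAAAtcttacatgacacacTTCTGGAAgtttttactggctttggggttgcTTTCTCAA
Clec5a, chr6:40585806-40586055, minus strand: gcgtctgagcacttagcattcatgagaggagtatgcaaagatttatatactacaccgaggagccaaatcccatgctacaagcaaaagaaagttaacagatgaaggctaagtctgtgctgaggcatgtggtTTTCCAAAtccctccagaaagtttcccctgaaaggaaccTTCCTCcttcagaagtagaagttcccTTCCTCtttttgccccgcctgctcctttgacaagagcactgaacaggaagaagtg
Trem2, chr17:48346151-48346400, plus strand: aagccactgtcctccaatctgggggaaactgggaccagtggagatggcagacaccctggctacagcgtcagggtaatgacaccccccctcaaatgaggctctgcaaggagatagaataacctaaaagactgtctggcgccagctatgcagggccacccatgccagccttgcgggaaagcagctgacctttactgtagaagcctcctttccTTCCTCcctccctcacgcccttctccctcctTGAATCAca

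Windows were at hand for 8 of the 10 members, *Clec4n* and *Tyrobp* having none. The C/EBP pattern was found in 5 of the 8 (*Clec4d*, *Clec4e*, *Clec5a*, *Trem1* and *Fcgr3*), against 40.3% of the 27025 genes with a window. The PU.1 core, named for a factor that myeloid cells depend on, was found in 7 of the 8, all but *Fcer1g*, against 25.9% of all genes. An AP-1 match stood in *Trem2*, directly before the start site (7.82% of all genes), and an NF-κB match in *Fcgr3*, overlapping a C/EBP match (4.46% of all genes). The GAS pattern TTCNNNGAA was found in *Fcgr1* and *Trem1* (8.13% of all genes) and the ISRE core GAAANNGAA in 0 of the 8 (8.18% of all genes). These matches describe letters in the window and were not tied to binding.

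Reads counted on genes came to 14.4 to 23.95 M per library. *Mcu* had 126 to 197 normalized counts in WT and 54.2 to 83.4 in *Mcu*-/- libraries. Normalized counts express each count as if its library, after TMM scaling, had the average size of 20.62 M. The 10 macrophage markers summed to 286275 to 293775 normalized counts in WT untreated, 341575 to 348213 with zymosan and 302402 to 308211 with BAPTA-AM and zymosan. In *Mcu*-/- libraries they summed to 188333 to 316351 untreated and to 232080 to 238721 with zymosan. The 5 markers of mast cells or basophils, the other cells known for the FcR gamma chain, summed to at most 11.7. Of these 5, 4 had no more than 3 counts in any library. *Mcu*-/- untreated replicate 4 stood apart from the other libraries of its group, since a chi-square of its counts against those of replicates 1 to 3 averaged 216 to 225 over genes, where the other 28 replicate pairs gave 1.60 to 6.42. The tests across genes were therefore fitted with and without that library. With it the biological coefficient of variation of the fit was 12.4%, and without it 3.56%. The 5 fibroblast markers, led by *Col1a1* and *Col1a2*, summed to 584 normalized counts in that library and to 908 to 1079 in the *Mcu*-/- zymosan libraries, against 22.6 to 137 in all others, with *Pdgfra* and *Dcn* at under 10 in every library. The sum of the 11 neutrophil markers went the other way, with 57.3 in replicate 4 and 66.7 to 80.4 in *Mcu*-/- with zymosan against 113 to 194 in the other libraries, and 5 of its genes had no more than 3 counts in any library. The 4 B cell markers summed to 373 in replicate 4 and 255 to 275 in *Mcu*-/- with zymosan, against 627 to 1143 in the other libraries. The 6 dendritic cell markers summed to 16.1 to 26.2 in untreated and 118 to 246 in zymosan libraries of both genotypes. Nearly all of this rise was *Xcr1*, with a mean of 12.6 in WT untreated, 186 with zymosan and 127 with BAPTA-AM and zymosan. In *Mcu*-/- the mean of *Xcr1* was 9.69 untreated and 215 with zymosan. *Cd209a* had 0 counts in every library, and the group means of *Flt3*, *Clec9a*, *Ccr7* and *Zbtb46* were at most 7.32. The part of these features in the values below was not tested.

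**Figure D1:**
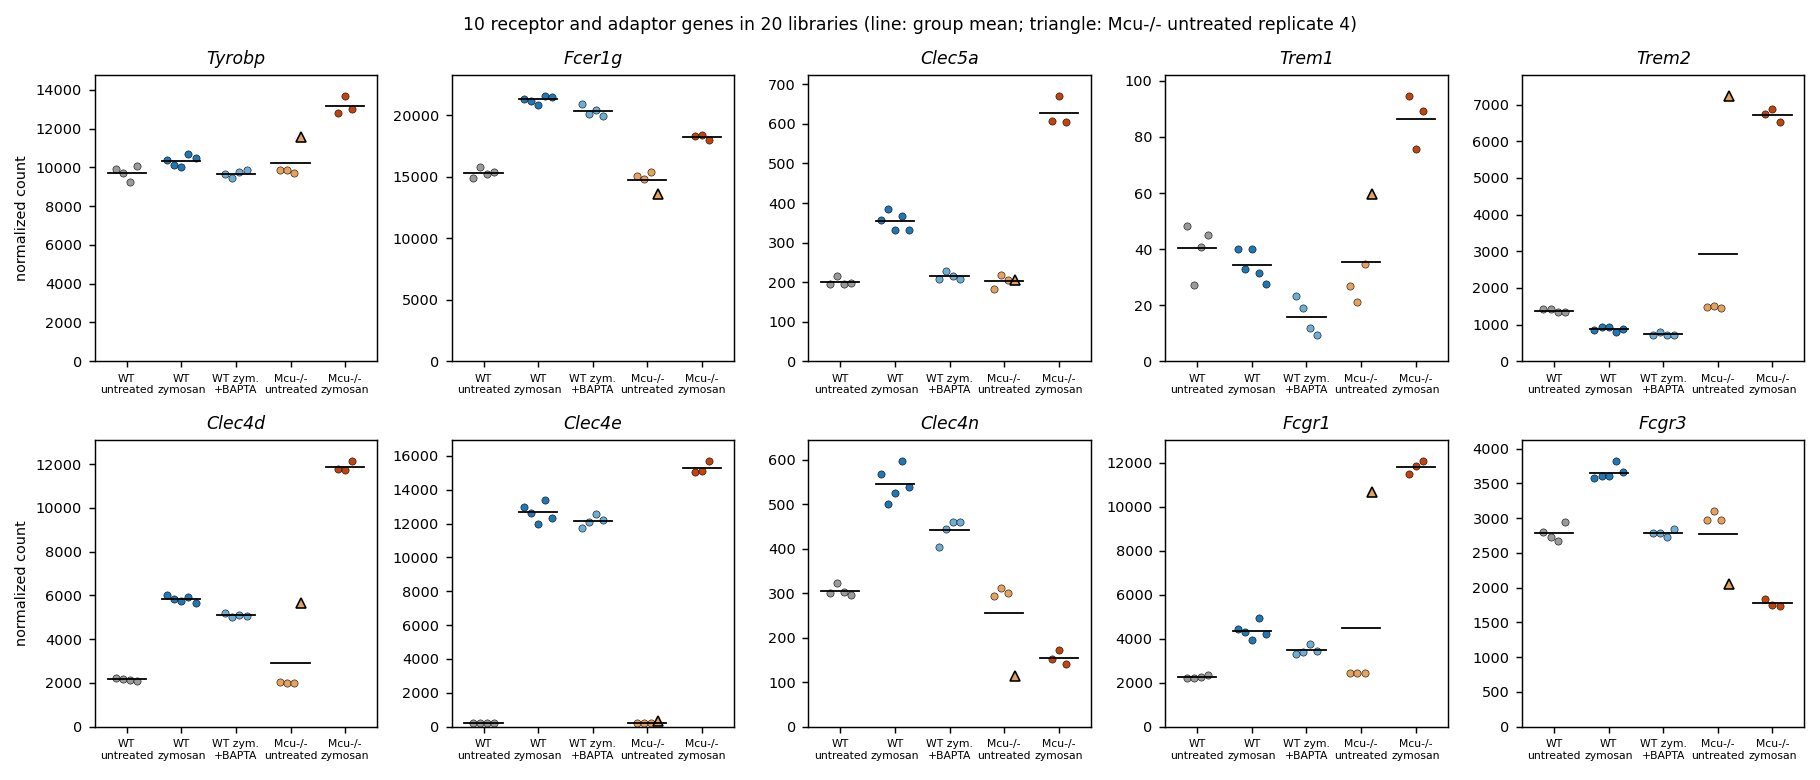
Normalized counts (y axis, linear, from 0) of the 2 adaptors and 8 receptors in each of the 20 libraries, by group on the x axis; points are libraries, lines group means, and the triangle is *Mcu*-/- untreated replicate 4. *Clec4e* went from 184 to 209 in WT untreated to 11960.5 to 13421 with zymosan, while *Trem2* and *Fcgr1* were high in the *Mcu*-/- zymosan libraries and in replicate 4.

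Zymosan in WT macrophages raised 7 of the 10 genes and lowered 0 (edgeR's quasi-likelihood test on all 20 libraries, Benjamini-Hochberg adjusted p under 0.05), against 32.4% of all genes called higher and 36.8% lower. The median log2 fold change of the 10 was 0.65, that of all genes -0.04. Without *Mcu*-/- untreated replicate 4, 8 were higher and 1, *Trem2*, lower, where 37.2% and 41.3% of all genes were called. Scaling to library totals moved the median of all genes by -0.45 and split the calls into 3 higher and 3 lower. In *Mcu*-/- macrophages zymosan changed all 10, with 8 higher and 2 lower (34.3% and 39.4% of all genes), also without replicate 4 (39.2% and 42.4%). The median was 1.25 with that library and 1.65 without it, beside -0.06 and -0.05 for all genes. Scaled to library totals, where the median of all genes moved by -0.48, 5 were higher and 4 lower. Calls over all genes were not counted by direction under that scaling, so neither split is set beside a share.

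With zymosan, *Mcu*-/- macrophages had 6 of the 10 genes higher than WT and 3 lower (31.8% and 30.3% of all genes), and 7 higher and 3 lower without replicate 4 (36.4% and 33.7%). The median of the 10 was 0.59 in both fits, and that of all genes 0.02. The zymosan response itself differed between the genotypes for 7 genes, being more positive in *Mcu*-/- for 4 and more negative for 3, against 15.2% and 20% of all genes. Without replicate 4 it differed for all 10, 7 and 3 (31% and 29.3% of all genes). The WT zymosan libraries also serve as the control of the BAPTA-AM comparison, in which 0 of the 10 were higher and 3 lower (6.43% and 6.33% of all genes). Without replicate 4 that became 9 lower, all but *Clec4e*, while 15.3% of all genes were called higher and 16.5% lower.

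**Figure D2:**
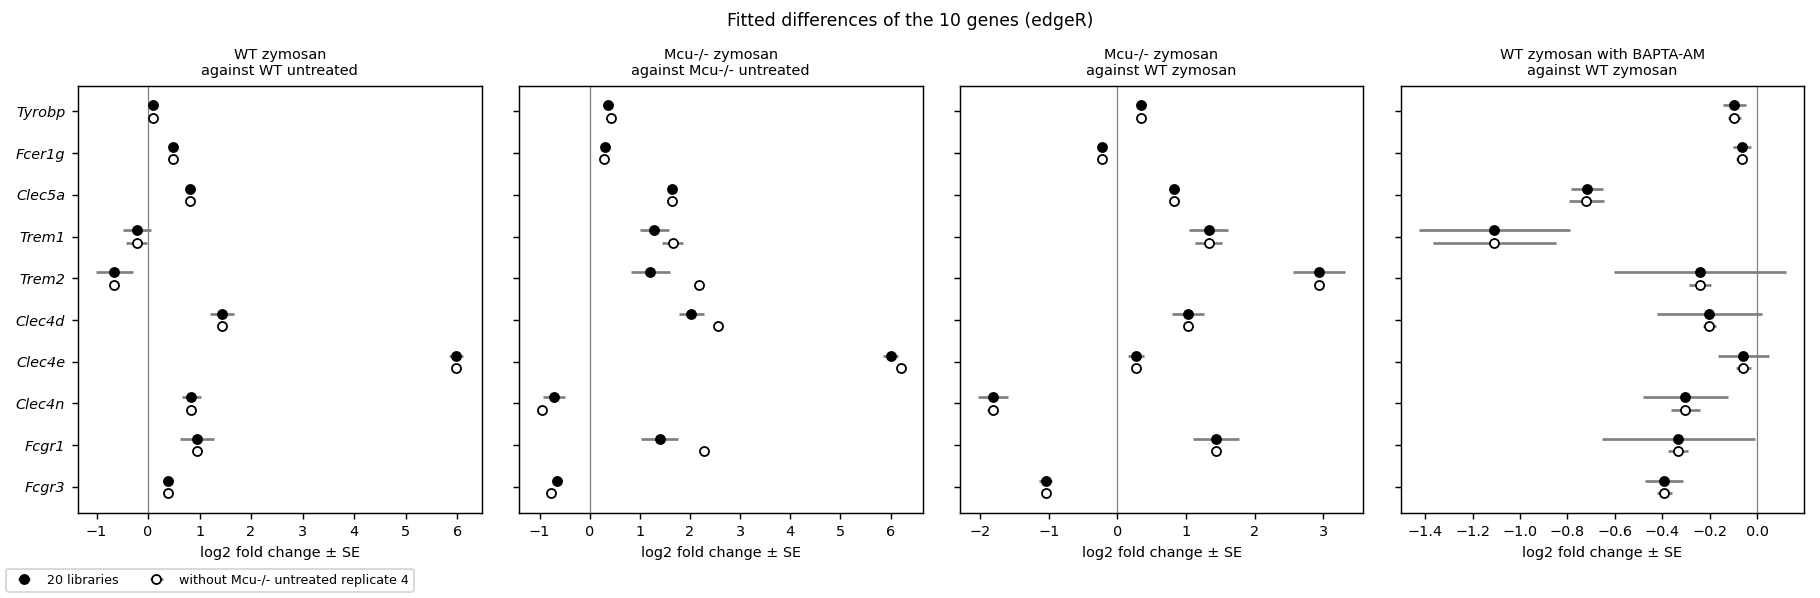
Log2 fold changes with their standard errors (x axis) of the 10 genes (y axis) in 4 comparisons, fitted with all 20 libraries (filled) and without *Mcu*-/- untreated replicate 4 (open). Leaving the library out narrowed most errors and raised the zymosan response of *Trem2* in *Mcu*-/- from 1.20 to 2.19. *Tyrobp*, *Fcer1g* and *Fcgr3* are the genes whose zymosan response in WT turns negative when scaled to library totals.

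Of the adaptors, *Tyrobp* had 9915, 9684, 9239 and 10082 normalized counts in the WT untreated libraries, 10403, 10115, 10029, 10673 and 10469 with zymosan, and 9633, 9424, 9771 and 9839 with BAPTA-AM and zymosan. For *Mcu*-/- libraries the values were 9845, 9849, 9699.7 and 11545 untreated and 12779, 13690.2 and 13011 with zymosan. All 3 *Mcu*-/- zymosan libraries lay above every other library, and replicate 4 of the untreated group lay between them and the rest. The WT groups overlapped, and their difference was a log2 of 0.09 with an SE of 0.048 and an edgeR adjusted p of 0.117, which became 0.00458 without replicate 4. Scaled to library totals the sign turned, to -0.41 in WT and, where the main fit had a rise of 0.36 (SE 0.055), to -0.16 in *Mcu*-/-. With zymosan, *Tyrobp* in *Mcu*-/- exceeded WT 1.27-fold (log2 0.35, SE 0.052, edgeR adjusted p = 2.16e-05). Its response to zymosan was more positive in *Mcu*-/- than in WT by a log2 of 0.28 (SE 0.073, edgeR adjusted p = 0.00757).

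*Fcer1g*, the adaptor shared by the lectins and Fc receptors, had 14876, 15784, 15208 and 15354 normalized counts in WT untreated, 21308, 21169, 20834, 21566 and 21442 with zymosan, and 20889.6, 20106, 20371 and 19937 with BAPTA-AM. For *Mcu*-/- libraries the values were 15058, 14792, 15335 and 13617 untreated and 18336, 18418 and 18004 with zymosan. The zymosan libraries lay above the untreated ones in both genotypes, and the *Mcu*-/- zymosan libraries lay below all WT zymosan libraries. *Fcer1g* rose 1.39-fold with zymosan in WT (log2 0.47, SE 0.038, edgeR adjusted p = 1.34e-09), but scaled to library totals the difference was -0.02 with an edgeR adjusted p of 0.715. The rise in *Mcu*-/- was 0.31 (SE 0.042, edgeR adjusted p = 2.67e-06) and turned to -0.21 on library totals. With zymosan it was lower in *Mcu*-/- than in WT by 1.16-fold (log2 -0.22, SE 0.041, edgeR adjusted p = 0.000168), the direction opposite to *Tyrobp*. The response of *Fcer1g* differed between the genotypes by -0.16 (SE 0.057, edgeR adjusted p = 0.0336), a call lost without any of 10 libraries in turn (edgeR adjusted p = 0.0512 to 0.076), these being WT untreated replicates 1 and 3, WT zymosan replicates 4 and 5, *Mcu*-/- untreated replicates 1 to 3 and each *Mcu*-/- zymosan library. BAPTA-AM gave -0.07 for *Fcer1g* and -0.10 for *Tyrobp*, neither called with all libraries (edgeR adjusted p = 0.303 and 0.221) and both called without *Mcu*-/- untreated replicate 4 (0.0332 and 0.00646).

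The DAP12-coupled receptor *Clec5a* (MDL-1), known as a receptor for flaviviruses, had 195, 216, 194 and 198 normalized counts in WT untreated libraries and 356, 385, 332, 367 and 331 with zymosan. With BAPTA-AM and zymosan it had 209, 228, 216 and 207. For *Mcu*-/- libraries the values were 181, 217, 205 and 205 untreated and 607, 671 and 606 with zymosan. The untreated libraries of both genotypes and the BAPTA-AM libraries overlapped, the WT zymosan libraries lay above them, and the *Mcu*-/- zymosan libraries lay above those. Zymosan raised *Clec5a* 1.76-fold in WT (log2 0.82, SE 0.066, edgeR adjusted p = 1.86e-09) and 3.11-fold in *Mcu*-/- (log2 1.64, SE 0.072, edgeR adjusted p = 2.73e-13). The responses differed by a log2 of 0.82 (SE 0.098, edgeR adjusted p = 6.37e-06). BAPTA-AM lowered it 1.65-fold (log2 -0.72, SE 0.067, edgeR adjusted p = 9.01e-07). Unlike most members, *Clec5a* in *Mcu*-/- untreated replicate 4, at 205, lay within the range of its group. The study picked *Clec5a* as an example from these same libraries, so these values are no independent evidence of its direction.

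*Trem1*, an amplifier of innate inflammatory signals, was the scarcest member, with 9 to 87 raw counts per library. It had 48.3, 27.1, 40.6 and 45.1 normalized counts in WT untreated, 39.9, 33.0, 40.0, 31.6 and 27.4 with zymosan, and 23.1, 19.1, 11.8 and 9.38 with BAPTA-AM. Counts in *Mcu*-/- were 26.7, 21.3, 34.6 and 59.7 untreated and 94.7, 75.7 and 89.2 with zymosan. The WT untreated and zymosan groups overlapped, the BAPTA-AM libraries lay below all WT zymosan libraries, and the *Mcu*-/- zymosan libraries lay above all others. *Trem1* with zymosan was at a 2.51-fold higher level in *Mcu*-/- (log2 1.33, SE 0.28, edgeR adjusted p = 0.000492), and its response differed by a log2 of 1.51 (SE 0.40, edgeR adjusted p = 0.00695). With BAPTA-AM it was lower by 2.16-fold (log2 -1.11, SE 0.32, edgeR adjusted p = 0.0261). That call was lost without WT zymosan replicate 1 or 3 or BAPTA-AM replicate 3 or 4, where the edgeR adjusted p was 0.056, 0.0575, 0.0763 and 0.0962. An annotated pseudogene lies within the span of *Trem1*, and how the counting treated it was not given in the sources used here.

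*Trem2*, a receptor for lipids and lipoproteins that marks lipid-handling macrophages, was the more abundant of the TREM pair. It had 1414, 1419, 1348 and 1335 normalized counts in WT untreated, 841, 929, 937, 798 and 874 with zymosan, and 718, 802, 718 and 726 with BAPTA-AM. Counts in *Mcu*-/- were 1483, 1501, 1441 and 7241 untreated and 6739, 6888 and 6522 with zymosan. The WT zymosan libraries all lay below the WT untreated ones, while the *Mcu*-/- zymosan libraries and replicate 4 of the untreated group lay several fold above every other library. The WT difference with zymosan was -0.65 (SE 0.35, edgeR adjusted p = 0.109) in the fit of all libraries and passed the test without replicate 4 (-0.65, SE 0.042, edgeR adjusted p = 4.71e-17). With zymosan *Trem2* was 7.66-fold higher in *Mcu*-/- than in WT (log2 2.94, SE 0.38, edgeR adjusted p = 4.47e-06), the largest genotype difference among the 10. Its response differed by a log2 of 1.86 (SE 0.53, edgeR adjusted p = 0.0112), and by 2.84 (SE 0.061, edgeR adjusted p = 1.88e-31) without replicate 4. Zymosan in *Mcu*-/- gave a rise of 1.20 (SE 0.39, edgeR adjusted p = 0.00964), with an edgeR adjusted p of 0.0825 on library totals and 0.112 in a fit of the *Mcu*-/- groups alone. BAPTA-AM gave -0.24, called without replicate 4 (edgeR adjusted p = 8.19e-05) and not with it (0.764). As these are bulk samples, more cells that carry a transcript and more transcript per cell cannot be told apart.

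Among the lectins of the FcR gamma chain, *Clec4e* and *Clec4d* had the largest zymosan responses of the 10 genes in both genotypes. *Clec4e* (Mincle, a receptor for microbial glycolipids) had 184, 207, 209 and 204 normalized counts in WT untreated, 12994, 12639, 11960.5, 13421 and 12308 with zymosan, and 11717, 12099, 12585 and 12242 with BAPTA-AM. Counts in *Mcu*-/- were 188, 193, 236 and 338 untreated and 15032, 15100.1 and 15697 with zymosan. Zymosan separated the groups completely in both genotypes, and the BAPTA-AM libraries overlapped the WT zymosan libraries. The rise was 63.0-fold in WT (log2 5.98, SE 0.14, edgeR adjusted p = 1.50e-17) and 64.1-fold in *Mcu*-/- (log2 6.00, SE 0.14, edgeR adjusted p = 2.72e-17). Without replicate 4 the rise in *Mcu*-/- was 74.3-fold (log2 6.22, SE 0.057). The responses differed by 0.02 (SE 0.17, edgeR adjusted p = 0.929) with all libraries and by 0.24 (SE 0.086, edgeR adjusted p = 0.0169) without replicate 4. The *Mcu*-/- zymosan libraries all lay above the WT ones, by a log2 of 0.27 (SE 0.12) with an edgeR adjusted p of 0.0500257, and without replicate 4 the same difference had an edgeR adjusted p of 9.38e-09. *Clec4e* was the only member for which BAPTA-AM gave no call in either fit (log2 -0.06, SE 0.032, edgeR adjusted p = 0.174 without replicate 4).

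*Clec4d* (MCL), which forms a complex with Mincle, started higher and rose less. It had 2228, 2176, 2147 and 2084 normalized counts in WT untreated, 6035, 5822, 5754, 5927 and 5649 with zymosan, and 5179.5, 4993, 5107 and 5033 with BAPTA-AM. Its values in *Mcu*-/- were 2031, 1999, 1991 and 5663 untreated and 11768, 11728 and 12139 with zymosan. The *Mcu*-/- zymosan libraries lay above all others, and replicate 4 of the untreated group lay in the range of WT with zymosan. *Clec4d* rose 2.70-fold with zymosan in WT (log2 1.43, SE 0.23, edgeR adjusted p = 1.69e-05) and with zymosan stood 2.03-fold above WT in *Mcu*-/- (log2 1.02, SE 0.23, edgeR adjusted p = 0.00104). The difference of the responses was 0.59 (SE 0.33, edgeR adjusted p = 0.176) with all libraries and 1.13 (SE 0.044, edgeR adjusted p = 3.09e-23) without replicate 4. With BAPTA-AM all 4 libraries lay below the WT zymosan libraries, a log2 of -0.20 that passed the test without replicate 4 (SE 0.027, edgeR adjusted p = 2.07e-07) and did not with it (SE 0.22, edgeR adjusted p = 0.653).

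*Clec4n* (Dectin-2, a receptor for fungal mannans) was higher with zymosan in WT, and its direction in *Mcu*-/- depended on the untreated libraries it was set against. It had 301, 323, 303 and 295 normalized counts in WT untreated, 567, 499.9, 525, 597 and 539.5 with zymosan, and 404, 444, 461 and 461 with BAPTA-AM. Its values in *Mcu*-/- were 293, 311, 301 and 114 untreated and 153, 171 and 142 with zymosan. The *Mcu*-/- zymosan libraries and replicate 4 lay below all other libraries, and the BAPTA-AM libraries lay between WT untreated and WT zymosan. Zymosan raised *Clec4n* 1.79-fold in WT (log2 0.84, SE 0.18, edgeR adjusted p = 0.000455) and lowered it 1.65-fold against the 4 untreated libraries in *Mcu*-/- (log2 -0.72, SE 0.22, edgeR adjusted p = 0.00707). In *Mcu*-/- with zymosan the mean was -0.96 from replicates 1 to 3 on the log2 scale and 0.45 from replicate 4, so the sign turned. The rise in WT kept its sign on library totals with an edgeR adjusted p of 0.0994. With the *Mcu*-/- groups fitted alone, the fall there had an edgeR adjusted p of 0.116. BAPTA-AM differed from zymosan alone by -0.30, called without replicate 4 (edgeR adjusted p = 0.000115) and not with it (0.322). The responses differed by a log2 of -1.56 (SE 0.29, edgeR adjusted p = 0.000584), and with zymosan *Clec4n* was 3.52-fold lower in *Mcu*-/- than in WT (log2 -1.81, SE 0.22, edgeR adjusted p = 2.06e-06).

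The activating IgG receptors among the members differed between the genotypes with zymosan in opposite directions. *Fcgr1*, the high-affinity receptor, had 2220.1, 2195, 2247 and 2341 normalized counts in WT untreated, 4433, 4307, 3939, 4943 and 4198 with zymosan, and 3287, 3409.5, 3736 and 3430.0 with BAPTA-AM. Its values in *Mcu*-/- were 2442, 2442, 2442 and 10679.7 untreated and 11491, 11849 and 12084 with zymosan. The *Mcu*-/- zymosan libraries and replicate 4 lay above all others, and the BAPTA-AM libraries lay below the WT zymosan libraries without overlap. *Fcgr1* rose 1.94-fold with zymosan in WT (log2 0.96, SE 0.33, edgeR adjusted p = 0.0149) and with zymosan stood 2.71-fold above WT in *Mcu*-/- (log2 1.44, SE 0.34, edgeR adjusted p = 0.0014). On library totals the rise in WT was 0.46 with an edgeR adjusted p of 0.171. Zymosan in *Mcu*-/- raised *Fcgr1* by a log2 of 1.39 (SE 0.36, edgeR adjusted p = 0.0021), and by 2.27 (SE 0.050) without replicate 4. With the *Mcu*-/- groups fitted alone, the edgeR adjusted p of that rise was 0.06. With BAPTA-AM the difference of -0.33 was called without replicate 4 (edgeR adjusted p = 2.70e-08) and not with it (0.6). Its response differed by 0.44 (SE 0.48, edgeR adjusted p = 0.505) with all libraries and by 1.32 (SE 0.064, edgeR adjusted p = 2.90e-20) without replicate 4.

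*Fcgr3*, a low-affinity receptor, had 2794, 2733, 2669 and 2948 normalized counts in WT untreated, 3571, 3612, 3607, 3822 and 3670.2 with zymosan, and 2787, 2786, 2724 and 2846 with BAPTA-AM. Among *Mcu*-/- libraries it had 2979, 3096, 2973 and 2050.1 untreated and 1834, 1743 and 1737 with zymosan. The BAPTA-AM libraries fell in the range of WT untreated, and the *Mcu*-/- zymosan libraries lay below every other library. Zymosan raised *Fcgr3* 1.31-fold in WT (log2 0.39, SE 0.082, edgeR adjusted p = 0.000291), a difference of -0.10 with an edgeR adjusted p of 0.317 when scaled to library totals, and it fell 1.57-fold in *Mcu*-/- (log2 -0.65, SE 0.094, edgeR adjusted p = 6.21e-06). The responses differed by -1.04 (SE 0.12, edgeR adjusted p = 6.58e-06). BAPTA-AM lowered it by 1.31-fold (log2 -0.39, SE 0.082, edgeR adjusted p = 0.00313). *Fcgr3* has a close paralog in the inhibitory receptor gene *Fcgr2b* and reads that fit both are uncertain.

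Without zymosan, 0 of the 10 genes differed between *Mcu*-/- and WT in edgeR, with 0.128% of all genes called higher and 0.222% lower, and DESeq2 called 0 too. At an unadjusted p under 0.05 there were 2, *Fcgr1* and *Trem2*. Without replicate 4 edgeR again called 0, with 1.53% and 1.83% of all genes called, and 5 had an unadjusted p under 0.05. The share of all genes under that unadjusted threshold is not given here, so the 2 and the 5 are not read as a result. Replicates 1 to 3 had log2 ratios to the WT untreated mean of 0.06 to 0.12 for *Trem2*, 0.12 for *Fcgr1* and -0.06 to 0.03 for *Clec4n*. They were furthest from WT for the scarce *Trem1*, at -0.92 to -0.22. Replicate 4 had a log2 ratio of 2.39 for *Trem2*, 2.25 for *Fcgr1*, 1.39 for *Clec4d* and -1.42 for *Clec4n*.

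For all 10 genes replicate 4 deviated from WT untreated to the same side as *Mcu*-/- deviated from WT with zymosan, as it did for 78.7% of all genes tested. For replicates 1 to 3 it was 5 of 10 each, and 49.5 to 50.7% of all genes. *Mcu*-/- with zymosan differed from replicate 4 by a log2 of -0.11 for *Trem2* and 0.14 for *Fcgr1*, and from the mean of replicates 1 to 3 by 2.19 and 2.27. For *Clec4e* and *Clec5a* it differed from replicate 4 by 5.50 and 1.62, and from replicates 1 to 3 by 6.22 and 1.64. For *Clec4n* the sign turned, with 0.45 against replicate 4 and -0.96 against replicates 1 to 3. The same values were 1.07 and 2.57 for *Clec4d*, 0.54 and 1.65 for *Trem1*, -0.21 and -0.77 for *Fcgr3*, 0.19 and 0.43 for *Tyrobp* and 0.42 and 0.28 for *Fcer1g*. Of the 10 genes, *Clec5a* moved least with the choice of reference.

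**Figure D3:**
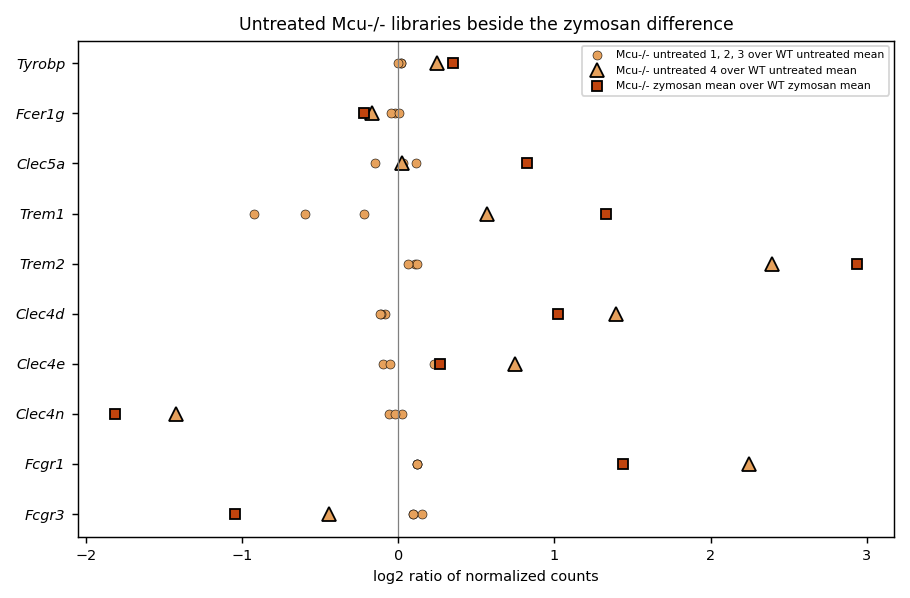
Log2 ratios of normalized counts (x axis) of the 10 genes (y axis) in the untreated *Mcu*-/- libraries to the mean of WT untreated (circles, replicates 1 to 3, and triangle, replicate 4), beside *Mcu*-/- zymosan to WT zymosan (squares). The triangle lies on the side of the square for every gene, at 2.39 and 2.94 for *Trem2*, but near 0 for *Clec5a* where the square is at 0.83.

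Levels of different genes were compared as reads per kb of exon per 1 M scaled reads (RPKM scale). The adaptors were the most abundant members in every group, with 849 ± 20.9 (SD, n = 4) for *Fcer1g* and 708 ± 26.6 for *Tyrobp* in WT untreated. With zymosan *Fcer1g* was at 1180.0 ± 15.7 (n = 5) and *Tyrobp* at 752 ± 19.2 in WT, and at 1013 ± 12.2 (n = 3) and 957 ± 34.4 in *Mcu*-/-. The 8 receptors together came to 215 ± 3.23 (n = 4) in WT untreated, 517 ± 18.2 (n = 5) with zymosan, 441 ± 6.45 (n = 4) with BAPTA-AM and 861 ± 12.2 (n = 3) in *Mcu*-/- with zymosan. The ratio of adaptors to these 8 receptors was 7.26 ± 0.109, 3.74 ± 0.092, 4.15 ± 0.0836 and 2.29 ± 0.0647 in these groups. Transcripts of the 8 thus grew more than adaptor transcripts. *Fcgr4*, an activating IgG receptor outside the 8, was at 151, 548, 449 and 166 in the same groups. It is not in the sum, so the ratio holds for the 8 only.

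The order of the receptors changed with the group. In WT untreated *Fcgr3* (36.3% of the 8 receptors' sum), *Clec4d* (30.5%) and *Fcgr1* (19.6%) led, and *Clec4e* was seventh with 0.915%. In WT with zymosan *Clec4d* (34.3%) and *Clec4e* (23.9%) led, with *Fcgr3* at 19.8%. In *Mcu*-/- with zymosan *Clec4d* (41.9%), *Fcgr1* (25.7%) and *Clec4e* (17.3%) led and *Trem2* (7.65%) stood above *Fcgr3* (5.75%). *Trem1* was last in every group. The levels per length of *Clec4e* (1.96 ± 0.114) and *Clec5a* (2.54 ± 0.13) in WT untreated were neighbours without overlap, and those of *Clec4d* and *Fcgr3* in that group, 65.5 ± 1.82 and 77.8 ± 3.34, did not overlap either.

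**Figure D4:**
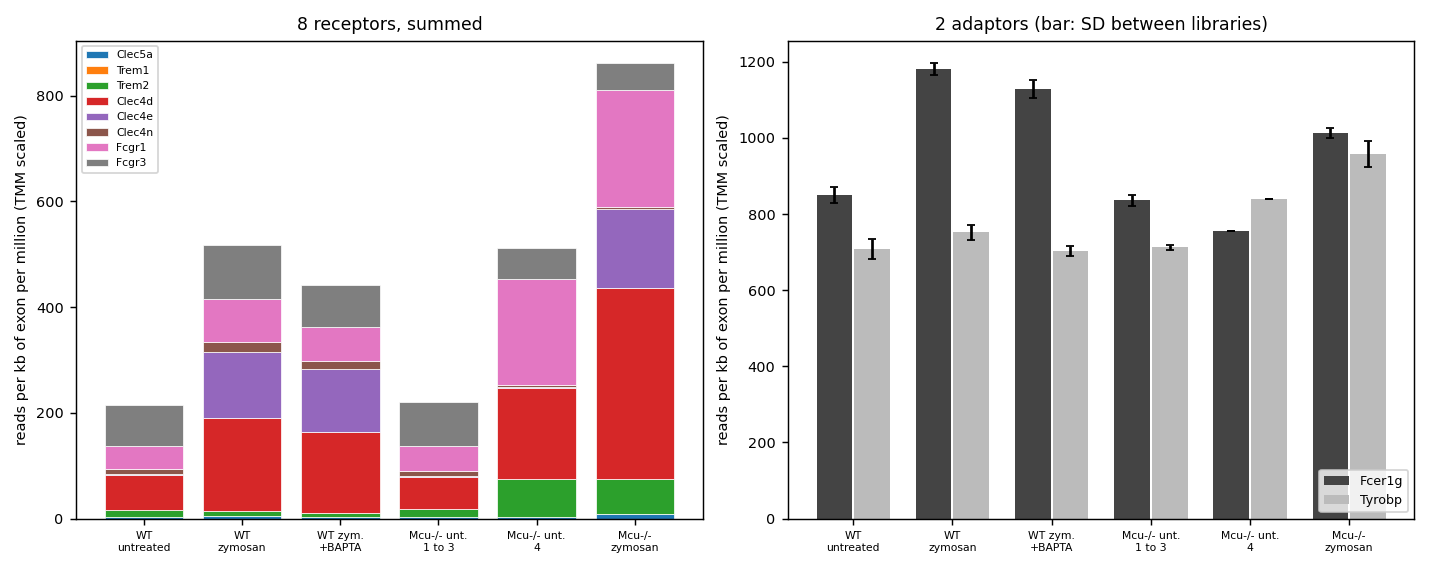
Reads per kb of exon per 1 M scaled reads (y axis, linear, from 0) of the 8 receptors, stacked as group means (left), and of the 2 adaptors with the SD between libraries (right), with *Mcu*-/- untreated replicate 4 drawn apart and without error. The receptor sum was 215 in WT untreated and 861 in *Mcu*-/- with zymosan; *Fcer1g* stood above *Tyrobp* in every bar pair but that of replicate 4.

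Ratios of counts within a library need no scaling between libraries. They were compared by 16 exact two-sided permutation tests, adjusted over the 16. The log2 ratio of *Clec4e* to *Clec4d* was -3.60 to -3.36 in WT untreated and 1.06 to 1.18 with zymosan, a difference of 4.54 (exact p = 0.00794, adjusted 0.0286, the smallest p that 5 against 4 libraries allow). In *Mcu*-/- with zymosan it was 0.35 to 0.37, lower than in WT by 0.75 (exact p = 0.0179, adjusted 0.0286). With BAPTA-AM it was 1.18 to 1.30, higher than in WT by 0.14 (exact p = 0.0159, adjusted 0.0286). The BAPTA-AM test had an exact p of 0.0571 without WT zymosan replicate 1, 2, 3 or 5. Untreated *Mcu*-/- libraries had -4.07 to -3.08, and whether the shift with zymosan differed in size between the genotypes was not tested for this ratio.

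The log2 ratio of *Fcer1g* to *Tyrobp* was 0.59 to 0.72 in WT untreated, 1.01 to 1.07 with zymosan, 1.02 to 1.12 with BAPTA-AM and 0.43 to 0.52 in *Mcu*-/- with zymosan. It rose by 0.39 with zymosan in WT (exact permutation p = 0.00794, adjusted 0.0286) and was 0.57 lower in *Mcu*-/- than in WT with zymosan (exact p = 0.0179, adjusted 0.0286). The BAPTA-AM difference of 0.03 did not pass the test (exact p = 0.206, adjusted 0.254). Of the activating *Fcgr3* to the inhibitory *Fcgr2b* it was 3.10 to 3.39 in WT untreated, 1.62 to 1.89 with zymosan and 2.39 to 2.46 in *Mcu*-/- with zymosan. The fall of 1.42 in WT had an exact permutation p of 0.00794 (adjusted 0.0286), and with zymosan the ratio in *Mcu*-/- exceeded that in WT by 0.65 (exact p = 0.0179, adjusted 0.0286). With BAPTA-AM the ratio was 0.20 higher than with zymosan alone (exact p = 0.0159, adjusted 0.0286). *Fcgr2b* itself had 977 to 1161 normalized counts in WT with zymosan and 316 to 342 in *Mcu*-/- with zymosan.

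The log2 ratio of *Trem1* to *Trem2* was -4.99 to -4.40 in WT with zymosan and -6.51 to -6.15 in *Mcu*-/- with zymosan, a difference of -1.60 (exact permutation p = 0.0179, adjusted 0.0286). With zymosan in WT it differed from untreated by 0.45 (exact p = 0.0556, adjusted 0.0762), with overlapping groups. With BAPTA-AM it was 0.95 lower than with zymosan alone (exact p = 0.0159, adjusted 0.0286), and the exact p was 0.0571 without WT zymosan replicate 1, 2, 3 or 4. The test of zymosan in WT had an exact p of 0.0286 without WT zymosan replicate 5. Untreated *Mcu*-/- against WT passed for 0 of the 4 ratios, with exact permutation p-values of 0.0571 to 0.943.

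**Figure D5:**
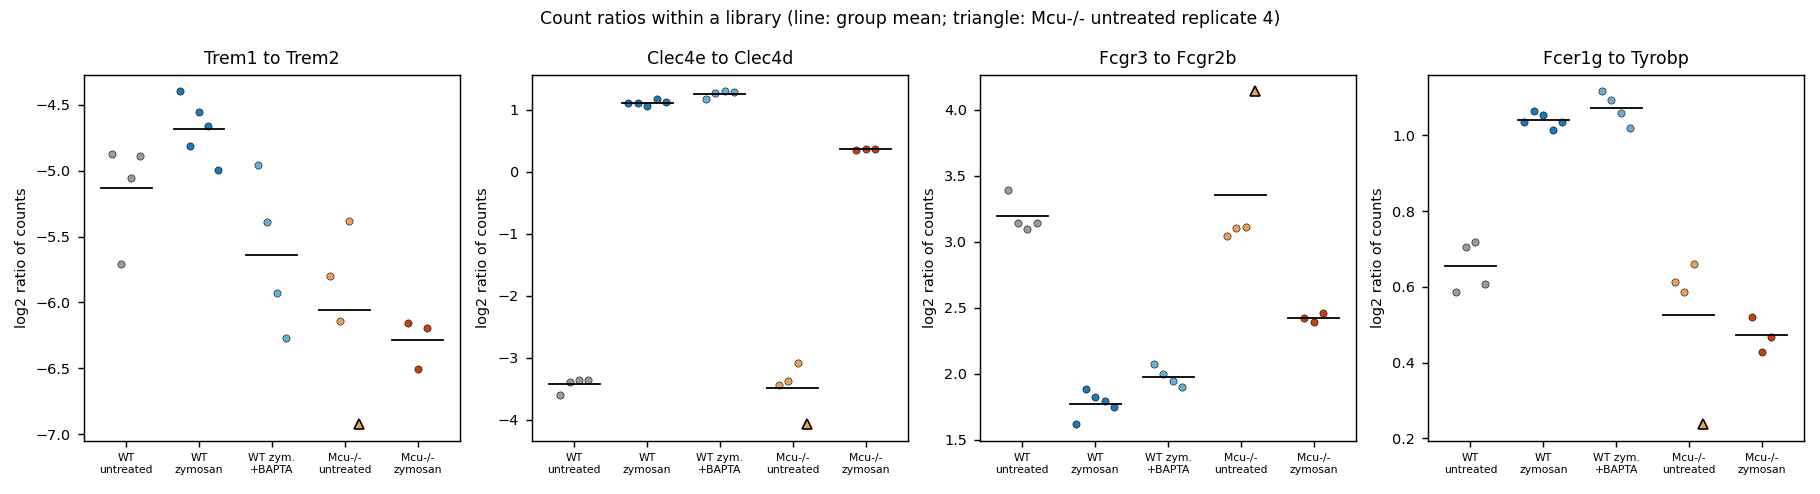
Log2 ratios of counts within each library (y axis) for 4 gene pairs, by group on the x axis; points are libraries, lines group means, and the triangle is *Mcu*-/- untreated replicate 4. The 3 *Mcu*-/- zymosan libraries lie apart from the WT zymosan libraries in all 4 panels, at 0.35 to 0.37 against 1.06 to 1.18 for *Clec4e* to *Clec4d*.

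Downstream of the adaptors, 23 genes of ITAM signalling were listed and tested. In WT with zymosan 12 were higher and 9 lower, with a median log2 fold change of 0.23 against -0.04 for all genes, of which 32.4% were called higher and 36.8% lower. The largest were *Malt1* (3.20), a partner of CARD9 and BCL10, *Lcp2* (2.21), which encodes the scaffold SLP-76, and *Sos1* (1.56), a Ras exchange factor. *Mcu*-/- had 3 higher and 16 lower than WT with zymosan (median -0.32), led by the Src-family kinase *Fgr* (-2.85), *Pik3cd* (-1.43), a PI3-kinase subunit, and *Sos1* (-0.98). Of all genes 31.8% were called higher and 30.3% lower in that comparison. Without replicate 4 the list had 5 higher and 18 lower, beside 36.4% and 33.7% of all genes. With BAPTA-AM 1 was higher and 5 lower (median -0.10), led by *Malt1* (-0.73), *Vav3* (-0.66) and *Sos1* (-0.43), beside 6.43% and 6.33% of all genes. Without replicate 4 the counts were 3 and 12, beside 15.3% and 16.5% of all genes.

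Of 20 genes listed for other activating receptors, 16 were tested. The list also held *Hcst*, which encodes the adaptor DAP10 itself, and *Clec7a* (Dectin-1), which needs neither adaptor. In *Mcu*-/- 3 were higher and 10 lower than in WT with zymosan, beside 31.8% and 30.3% of all genes. The median was -1.41, and *Lilra6* (-2.84), *Sirpb1a* (-2.41) and *Clec4b1* (-2.03) led. In WT zymosan gave 5 higher and 3 lower (median 0.17), beside 32.4% and 36.8% of all genes. Among them were *Fcgr4* (1.86), a further activating IgG receptor, and *Cd300lb* (-2.89). With zymosan *Fcgr4* stood at 548 in WT and 166 in *Mcu*-/- on the RPKM scale. Among 25 entries for inhibitory receptors and phosphatases, 8 were higher and 8 lower with zymosan in WT (median 0.14), about the shares over all genes. Without replicate 4, 14 were higher and 10 lower, beside 37.2% and 41.3% of all genes. *Lilr4b* stood at 3.39 and *Fcgr2b* at 1.81. *Mcu*-/- had 4 of these entries higher and 13 lower than WT with zymosan (median -0.38), beside 31.8% and 30.3% of all genes. *Cd300lf* was at 3.56, *Clec4a2* at -1.95 and *Dok3* at -1.90. Without replicate 4 the counts for *Mcu*-/- against WT with zymosan were 3 and 11 for the activating list and 8 and 15 for the inhibitory list. Of all genes 36.4% were called higher and 33.7% lower in that fit.

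The list nearest to *Trem2* held genes of lipid-handling macrophages, of which 15 of 16 were tested. In *Mcu*-/- 14 were higher and 0 lower than in WT with zymosan in both fits (median 1.69), led by *Gpnmb* (2.73), *Spp1* (2.62) and *Fabp4* (2.52). Of all genes 31.8% were called higher and 30.3% lower there, and 36.4% and 33.7% without replicate 4. In WT 9 of the 15 were called higher with zymosan and 0 lower (median 0.72), beside 32.4% and 36.8% of all genes, and 11 and 2 without replicate 4, led by *Fabp4* (4.08), while *Trem2* itself was lower in all 5 libraries. All 15 were higher with zymosan in *Mcu*-/- (median 1.66), where 34.3% of all genes were called higher. Untreated *Mcu*-/- against WT had 0 called in either direction and a median of 0.93 with replicate 4. Without it 8 were higher, beside 1.53% of all genes, with a median of 0.23, led by *Gpnmb* (0.51) and *Spp1* (0.39). BAPTA-AM gave 0 calls with all libraries and 3 higher and 6 lower without replicate 4, beside 15.3% and 16.5% of all genes. A list of 5 genes on the shedding of such receptors held the proteases *Adam10* and *Adam17*, *Rhbdf1*, *Rhbdf2* and the protease inhibitor *Timp3*. With zymosan in WT *Rhbdf2* (2.33) and *Adam17* (1.06) rose and *Adam10* (-0.64) fell. *Adam10* with zymosan was 0.56 higher in *Mcu*-/- than in WT. This mixed list had a median of 1.06 in WT. *Mcu*-/- had 2 of the 5 higher and 2 lower than WT with zymosan, beside 31.8% and 30.3% of all genes.

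The genes most like each member were found by the root mean square difference of the 5 group means of log2 CPM, each centred on its own mean, among 8350 genes, with *Mcu*-/- untreated replicate 4 in its group mean. For *Clec4e* they were *Tnfaip3* (0.12), *Ifih1* (0.15) and *Pim1* (0.16). For *Clec5a* they were *Tpgs2* (0.10), *Arhgap31* (0.11) and *Nlrc4* (0.14), and for *Trem2* they were *Adssl1* (0.05), *Adam8* (0.15) and *Apbb2* (0.21). *Fcgr1* lay nearest to *Bst2* (0.06), *Clec4d* to *Kpna3* (0.09), *Clec4n* to *4930503L19Rik* (0.07), *Fcgr3* to *Zfp821* (0.08) and *Trem1* to *Colec12* (0.20). *Tyrobp* was nearest to *Psmd3* and *Fcer1g* to *Snrpa1*, at 0.013 and 0.012. No member was among the 3 nearest of another.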

How the data were processed

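Per the study's methods, the authors trimmed adaptors from paired-end reads with cutadapt, mapped them with STAR to mm10 and counted reads per gene with HTSeq. Versions, strand setting and the treatment of reads that fit several genes were not given in the sources used here. The deposited values are raw counts per gene symbol. Columns were assigned to groups by name; the 3 *Mcu*-/- zymosan columns are numbered 3, 4 and 5 where the labels count 1 to 3. The counts were fitted with edgeR 4.0.16 in R 4.3.3 (filterByExpr, TMM, quasi-likelihood fit of all 20 libraries, 1 coefficient per group) and DESeq2 1.42.0 as an alternative, checked on simulated data. A call is a Benjamini-Hochberg adjusted p under 0.05 over all genes tested. Levels per length used summed exon length in GENCODE M21. The members and gene lists were chosen with earlier results of these data known. Named genes were the members, *Mcu*, the genes of the 4 ratios, the 3 largest calls per list at 10 CPM or more and the 3 genes most like each member. At a total of 14.4 to 23.95 M, *Trem1*, with 9 to 87 counts, was the least precise member. As alternatives, sizes came from DESeq2's factors or from library totals, beside 2 other filters, DESeq2's test, fits of the groups compared alone, the replicate number as a block and leaving out each library.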

Additional observations from a re-analysis of the deposited data

Results flagged for a closer look

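Among 40 combinations of gene and group with 4 or 5 libraries, 8 held a library far from the others by Dixon's test, where chance gives about 1 in 20. Of these, 6 were *Mcu*-/- untreated replicate 4: *Clec4d* at 5663 normalized counts, *Clec4n* at 114, *Trem2* at 7241, *Tyrobp* at 11545, *Fcgr1* at 10679.7 and *Fcgr3* at 2050.1. The others were *Clec5a* at 216 in WT untreated replicate 2 and *Trem2* at 802 in BAPTA-AM replicate 2.

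The response to zymosan differed between *Mcu*-/- and WT by edgeR's interaction term for 7 genes. The log2 differences were 1.86 for *Trem2*, 1.51 for *Trem1*, 0.82 for *Clec5a*, 0.28 for *Tyrobp*, -0.16 for *Fcer1g*, -1.04 for *Fcgr3* and -1.56 for *Clec4n*. The edgeR adjusted p of *Fcer1g* was 0.0336 and ran from 2.4e-05 to 0.087 over its alternatives.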

How the results depend on the processing

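The count of members called with BAPTA-AM was the total that moved by over 1.5 times: 3 with all libraries, 9 in a fit of the groups compared alone, and 2 to 9 when 1 library was left out, 9 being without *Mcu*-/- untreated replicate 4. The other counts over both directions stayed within 1.5 times under every alternative run, while by direction zymosan in WT went from 7 higher and 0 lower to 3 and 3 and zymosan in *Mcu*-/- from 8 and 2 to 5 and 4 on library totals, and more positive responses in *Mcu*-/- went from 4 to 7 without replicate 4; over the libraries left out the totals were 7 to 9 for zymosan in WT, 10 to 10 in *Mcu*-/-, 9 to 10 for *Mcu*-/- against WT with zymosan, 0 to 0 without zymosan and 6 to 10 for the difference of the responses. Scaling to library totals reversed the sign of the zymosan difference for *Tyrobp* (-0.41 in WT, -0.16 in *Mcu*-/-), *Fcer1g* (-0.0178 and -0.21) and *Fcgr3* (-0.10 in WT); that scaling moves the median of all genes by -0.45 and -0.48 in these comparisons. With it the WT calls of *Clec4n*, *Fcgr1*, *Fcer1g* and *Fcgr3* and the *Mcu*-/- call of *Trem2* ended, and *Trem1*, *Trem2* and *Tyrobp* were called lower in WT. The *Clec4e* difference between *Mcu*-/- and WT with zymosan had an edgeR adjusted p of 9.38e-09 to 0.136 over its alternatives. Fits of the *Mcu*-/- groups alone ended the zymosan calls of *Clec4n*, *Trem2* and *Fcgr1* (edgeR adjusted p = 0.116, 0.112 and 0.06). *Trem1* could not be tested with at least 10 counts in every library. With the replicate block the members called were 7, 10, 9, 0, 3 and 6 in the order WT zymosan, *Mcu*-/- zymosan, genotype with zymosan, genotype untreated, BAPTA-AM and difference of responses, and *Fcer1g* alone lost a call. Beside the 9 members called with BAPTA-AM without replicate 4, 15.3% of all genes were called higher and 16.5% lower. Shares of all genes are not set beside the counts under other settings, which show only how calls moved with the processing. Libraries with the same number correlated at -0.088 to 0.085 over 33 pairs, 0 of them over 0.1, so the numbers were not taken as pairs. For the ratios, leaving out 1 library kept 127 of 136 values on the same side of 0.05.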
